A study of Mus musculus with 4 samples.

Results

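The insulin-like growth factor (IGF) system was represented by 10 genes, taken by symbol: the ligands Igf1 and Igf2, the receptors Igf1r and Igf2r, and the binding proteins Igfbp2, Igfbp3, Igfbp4, Igfbp5, Igfbp6 and Igfbp7. All 10 were listed among the 32285 genes of the single-cell tables and the 19465 genes of the spatial tables. The rule that defines the group uses gene names and no threshold on a measured value. Another 32 genes of the pathway, such as adaptors, proteases and hormone-axis genes, were listed beside them, of which 31 had a probe in the spatial assay.

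The measurements came from the burn/tenotomy (BT) model, in which a burn and a cut Achilles tendon lead to heterotopic ossification (HO), the growth of bone in soft tissue. Unsorted cells from the tenotomy site of Hoxa11CreER;ROSA-LSL-TdTomato;Hif1a fl/fl mice were profiled by 3′ single-cell RNA sequencing (scRNA-seq) at day 7, after tamoxifen at 75 mg/kg daily for 5 days and a washout of 9 days. This gave 2 libraries, a pooled library of replicates 1 and 2 and a library of replicate 3. Sections A1 and B1 of 10 week old male wild-type C57BL/6 mice, also 7 days after BT injury, were profiled with Visium, which counts probe-derived molecules over small spots of fixed tissue. The Cre is driven by Hoxa11, a patterning gene of the zeugopod, so the floxed Hif1a is open to deletion only in cells of that lineage, and most classes below are outside it. Both libraries carry this genotype. No value below compares genotypes, since littermates without Cre were not analysed here. Whether A1 and B1 come from separate mice is not stated. Cells and spots differ in genotype and assay at once, so their levels were never set against each other.

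Both libraries were deeply sequenced, with 31536402 unique molecular identifiers (UMIs) over 2303 barcodes in the pooled library and 23379476 over 1266 in the replicate 3 library, of which 1276 and 795 cells passed the filters at median depths of 13144 and 17213 UMIs. The sections were shallow, with 2259744 and 2308754 UMIs and medians of 454 and 516 per spot. Cells were clustered without the 10 genes and the pathway list, and clusters were named from marker genes. The mesenchymal progenitor cell class (MPC, 166 and 142 cells) was led by Tnmd, Fmod, Thbs4 and Comp, genes of tendon matrix, and its marker list took 1.92% and 2.00% of its UMIs, against 0.782% and 0.975% in fibroblasts (112 and 91 cells). Markers of the osteoblast, neutrophil and B cell lists named no class. Without the filter on ribosomal UMIs a neutrophil class was named (39 and 20 cells), so its absence depends on that filter. In cells, Hif1a stood at 437 and 343 counts per 1000000 UMIs of the class (CPM) in MPCs and 538 and 461 CPM in fibroblasts, but since 3′ counting reads the end of a transcript, which the deletion may spare, this is no check of it. Hoxa11 was at 28.0 and 32.1 CPM in MPCs, 26.2 and 27.5 CPM in fibroblasts, while smooth muscle cells and pericytes had 14.3 and 6.75 CPM. In pairs of values from cells the pooled library comes first and the replicate 3 library follows. In pairs from spots A1 comes first and B1 follows.

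As background, IGF-I and IGF-II are secreted peptides that act on nearby cells or travel in blood. Both signal through the IGF type 1 receptor, a tyrosine kinase whose adaptors lead to PI3-kinase and Akt, while the type 2 receptor, also the receptor for mannose-6-phosphate, takes IGF-II into the cell for breakdown. The binding proteins hold the ligands outside the cell and either keep them from the receptor or carry them to it, and proteases such as pregnancy-associated plasma protein A release them. The system is known for its part in the growth of bone, cartilage and muscle and in tendon repair.

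By the genome annotation (GRCm38), Igf1 lies on chromosome 10 (87858265 to 87937042, plus strand) and Igf2 on chromosome 7 (142650766 to 142666816, minus strand), 72.6 kb from the imprinted non-coding gene H19, with no coding gene between. The receptors lie on chromosome 7 (Igf1r, 67952827 to 68233668) and chromosome 17 (Igf2r, 12682406 to 12769664). Igfbp2 (72824503 to 72852474, plus strand) and Igfbp5 (72857932 to 72874884, minus strand) are neighbours on chromosome 1, set end to end with a gap of 5.5 kb. Igfbp3 (7206086 to 7213923) and Igfbp4 (99041244 to 99054392) share chromosome 11 far from each other. Igfbp6 lies on chromosome 15 (102144362 to 102149511) and Igfbp7 on chromosome 5 (77349240 to 77408041). Genes on the opposite strand overlap Igf2r (Airn, 341 and 290 UMIs in the fitted classes) and Igfbp7 (Polr2b, 540 and 360 UMIs), and whether the counting used strand is not given in the sources used here.

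The promoters of Igfbp4, Igfbp5 and Igfbp7 are shown because these genes made up most binding-protein UMIs in MPCs and fibroblasts. Each stretch runs from 250 bases before to 50 after the start site (RefSeq, GRCm38.p6). Capitals mark matches, on either strand, to the TATA box TATAAA, the GC box GGGCGG and the E-box CANNTG, where N is any base.
Igfbp4, chr11:99040994-99041293, plus strand: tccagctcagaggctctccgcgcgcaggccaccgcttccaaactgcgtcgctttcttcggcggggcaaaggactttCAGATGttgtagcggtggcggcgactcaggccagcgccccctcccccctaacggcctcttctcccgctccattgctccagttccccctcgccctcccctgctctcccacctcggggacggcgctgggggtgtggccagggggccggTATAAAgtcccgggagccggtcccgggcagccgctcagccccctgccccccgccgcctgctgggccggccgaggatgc
Igfbp5, chr1:72874816-72875115, minus strand: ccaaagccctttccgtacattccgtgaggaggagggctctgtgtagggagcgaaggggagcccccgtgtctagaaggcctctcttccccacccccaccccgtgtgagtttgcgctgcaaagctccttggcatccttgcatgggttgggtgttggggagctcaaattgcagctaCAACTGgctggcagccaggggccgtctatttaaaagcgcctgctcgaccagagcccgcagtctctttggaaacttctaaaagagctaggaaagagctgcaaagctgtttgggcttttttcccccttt
Igfbp7, chr5:77407996-77408295, minus strand: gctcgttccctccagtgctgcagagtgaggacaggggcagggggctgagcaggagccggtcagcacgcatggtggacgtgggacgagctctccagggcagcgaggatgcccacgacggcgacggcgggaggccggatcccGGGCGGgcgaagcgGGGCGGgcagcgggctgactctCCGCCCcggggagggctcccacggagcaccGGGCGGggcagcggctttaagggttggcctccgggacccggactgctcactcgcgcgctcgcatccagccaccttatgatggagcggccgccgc
The Igfbp4 window held 1 TATA box and 1 E-box, the Igfbp5 window 1 E-box, and the Igfbp7 window 4 GC boxes. Of 32841 promoters of the same length, 13.6% held a TATA box, 35.7% a GC box and 72.3% an E-box, so these matches are descriptions of the letters only. All 10 members had a promoter in the table, with 4 for Igf2 and 2 for Igfbp2, and no other member except Igfbp6 held a TATA box in its window.

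The ligands were transcripts of the mesenchyme. Igf1 stood at 1216 and 1042 CPM in MPCs and at 1807 and 1543 CPM in fibroblasts. In macrophages Igf1 was at 217 and 311 CPM, in endothelial cells at 53.9 and 77.0 CPM and in smooth muscle cells and pericytes at 20.4 and 42.2 CPM. The other classes fitted (keratinocytes, T or NK, dendritic and Schwann cells) held at most 14.6 CPM of Igf1 in any library. The order of the leading classes, fibroblasts, then MPCs, then macrophages, was the same in both libraries. With each cell thinned to 3000 UMIs, 85.5% and 78.2% of MPCs and 81.8% and 81.8% of fibroblasts kept an Igf1 UMI, against 34.7% and 52.0% of macrophages (99.4% and 99.3%, 92.9% and 92.3%, and 43.9% and 61.3% unthinned). The thinned share in T or NK cells, which are not known as a source of Igf1, was 2.11% in the pooled library and 0 of 48 cells in the other, which allows up to 6.25%. Thinning left out 68 and 36 macrophages, which were shallower than 3000 UMIs.

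Igf2 was far lower. It stood at 73.5 and 45.4 CPM in MPCs and at 170 and 183 CPM in fibroblasts, and at 12.7 CPM or less in every other fitted class. No Igf2 UMI was seen in keratinocytes, Schwann cells or dendritic cells of either library, which allows up to 1.57 and 1.96 CPM in keratinocytes. Summed over both ligands, the levels were 1289 and 1088 CPM in MPCs, 1978 and 1726 CPM in fibroblasts and 219 and 313 CPM in macrophages. Together MPCs and fibroblasts held most Igf1 UMIs of all cells kept: 49.9% and 52.6% came from MPCs and 35.6% and 39.1% from fibroblasts.

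The receptors were spread over most classes. Igf1r was at 33.1 and 37.5 CPM in MPCs and at 76.9 and 68.6 CPM in fibroblasts, with 71.4 and 83.5 CPM in endothelial cells, 73.9 and 67.5 CPM in smooth muscle cells and pericytes and 86.1 and 64.0 CPM in Schwann cells. T or NK cells gave 34.4 and 118 CPM, a gap between libraries as wide as that between classes, so their place in the order differs between libraries. Dendritic cells were lowest for Igf1r in both libraries, at 15.1 and 25.6 CPM. Igf2r was at 92.6 and 104 CPM in MPCs, 106 and 117 CPM in fibroblasts and 121 and 150 CPM in smooth muscle cells and pericytes, and at 34.9 CPM or less in macrophages, keratinocytes, Schwann and dendritic cells. Of the classes rich in ligand, MPCs ranked 7 of 9 for Igf1r in both libraries and fibroblasts ranked 2 and 3.

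**Figure D1:**
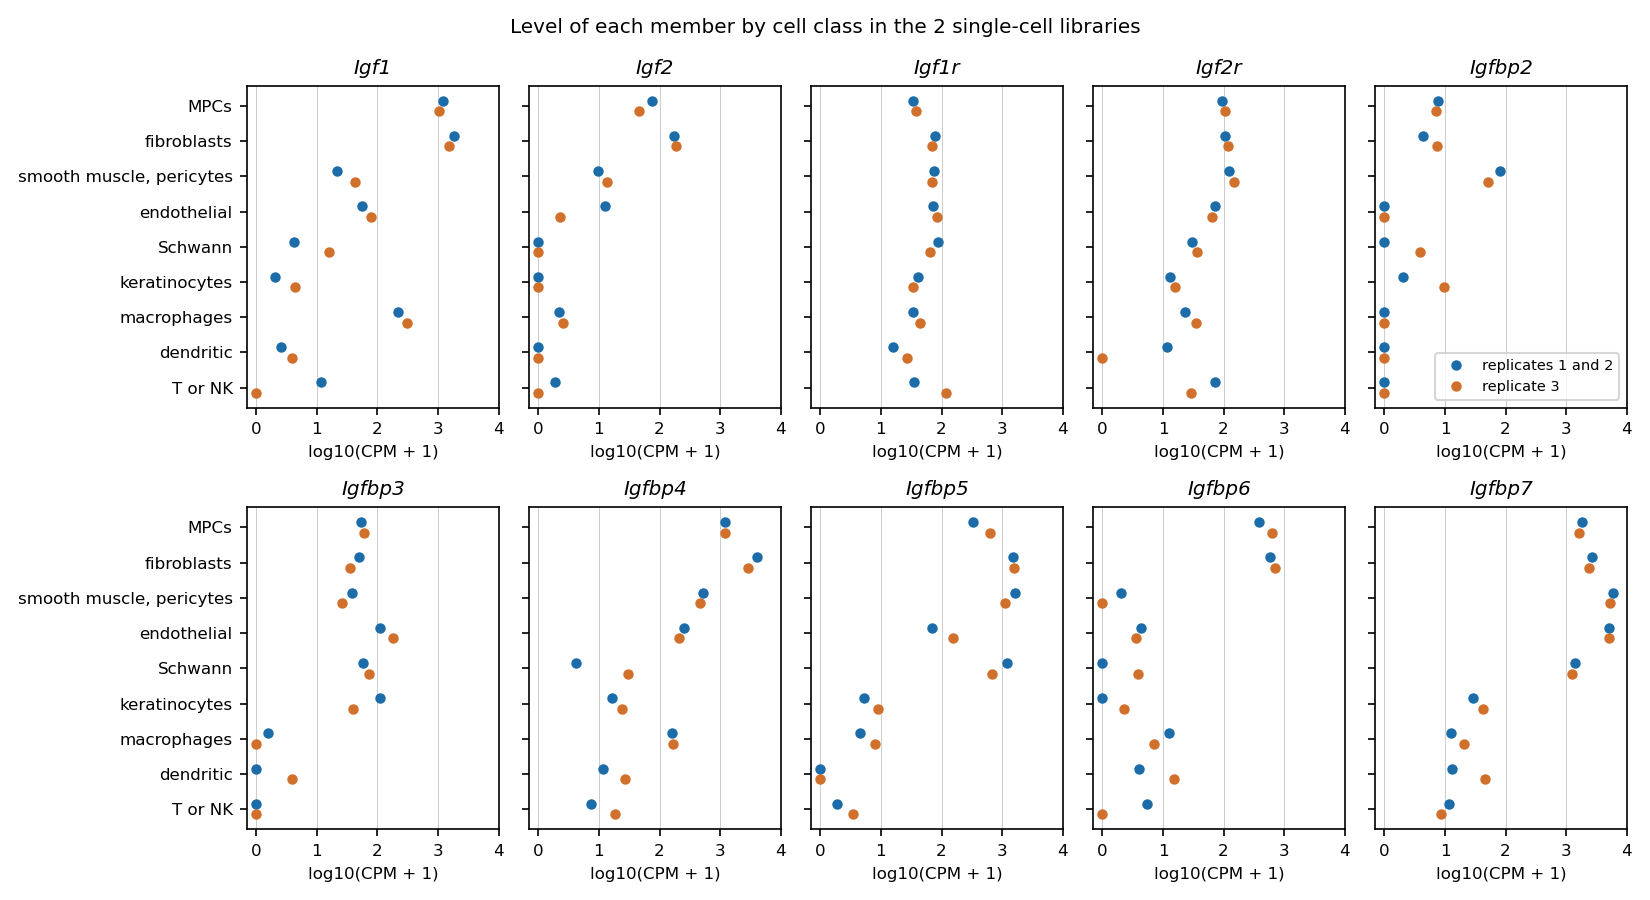
Level of each member (log10 of CPM + 1) in the 9 fitted cell classes, with a point for each of the 2 libraries. Igf1 and Igfbp4 are highest in fibroblasts and next in MPCs, Igfbp7 is highest in smooth muscle cells and pericytes (6000 and 5270 CPM) with endothelial cells close by, and Igf1r covers a narrow range.

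The binding proteins divided by cell class. Igfbp4, a soluble binding protein cleaved by pregnancy-associated plasma protein A, was at 1211 and 1211 CPM in MPCs and at 4068 and 2863 CPM in fibroblasts, and was lower, at 520 and 463 CPM in smooth muscle cells and pericytes, 251 and 209 CPM in endothelial cells and 159 and 164 CPM in macrophages. Among the fitted classes Igfbp6, which prefers IGF-II, was nearly restricted to MPCs and fibroblasts. It was at 379 and 635 CPM in MPCs and 594 and 705 CPM in fibroblasts, and at 14.2 CPM or less in the other fitted classes. Outside them, chondrocytes held 61 and 98 Igfbp6 UMIs and cells with no class name 313 and 574. Igfbp5, which also binds extracellular matrix, was at 329 and 626 CPM in MPCs, 1504 and 1547 CPM in fibroblasts, 1636 and 1098 CPM in smooth muscle cells and pericytes and 1205 and 687 CPM in Schwann cells. The libraries disagree on which of fibroblasts and smooth muscle cells stood higher for Igfbp5.

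Igfbp7, which binds IGFs only weakly and is known from blood vessels, was the most abundant member. It reached 6000 and 5270 CPM in smooth muscle cells and pericytes and 5116 and 5158 CPM in endothelial cells, then 2634 and 2430 CPM in fibroblasts, 1818 and 1616 CPM in MPCs and 1406 and 1266 CPM in Schwann cells. Immune classes and keratinocytes held at most 45.6 CPM of it. Igfbp3, the main carrier of IGFs in blood, was highest in endothelial cells at 108 and 176 CPM, while keratinocytes gave 108 and 38.6 CPM, MPCs 51.8 and 59.8 CPM and fibroblasts 48.1 and 33.6 CPM. Among the fitted classes Igfbp2 was highest in smooth muscle cells and pericytes at 80.5 and 50.6 CPM, above Igfbp3 (36.7 and 25.3 CPM) and Igfbp6 there. It was the lowest of the 6 binding proteins in the MPC and fibroblast classes, at 6.54 and 6.09 CPM in MPCs and 3.34 and 6.33 CPM in fibroblasts. No Igfbp2 UMI was seen in macrophages or endothelial cells of either library. Cells that got no class name held 52.9% and 82.8% of the Igfbp2 UMIs of all cells kept. Each 3′ tag stands for 1 molecule, so these levels need no scaling for length.

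Summed over the 6 binding proteins, levels were 3795 and 4153 CPM in MPCs, 8851 and 7584 CPM in fibroblasts, 8275 and 6907 CPM in smooth muscle cells and pericytes, 5546 and 5699 CPM in endothelial cells and 2671 and 2060 CPM in Schwann cells, against 22.6 and 27.7 CPM in T or NK cells. The makeup differed between classes. Igfbp4 was 31.9% and 29.2% of binding-protein UMIs in MPCs and 46.0% and 37.7% in fibroblasts. In endothelial cells Igfbp7 was 92.2% and 90.5%. In smooth muscle cells and pericytes its part was 72.5% and 76.3%. In macrophages, which had few such UMIs, Igfbp4 was 85.4% and 83.3%.

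To ask which members stood apart in MPCs, UMIs were summed per class and library, and MPCs were set against the mean log level of the other 8 classes with edgeR's quasi-likelihood test, with library as a block and Benjamini-Hochberg adjustment over all 12640 genes tested. Adjusted p-values below are from this test, and they measure only the spread between 2 libraries of the same genotype. In MPCs 9 of the 10 members were higher and none was lower, beside 31.1% of all genes higher and 14.3% lower. The median log2 fold change of the members was 3.68, beside 0.09 over all genes. This median lies between the values of Igfbp2 and Igfbp4. The Igfbp2 value depends on the prior count, as given below, so the size of the median does too. Igfbp6 led at 6.79 ± 0.21 (log2 fold change ± SE, adjusted p = 1.35e-14), then Igf1 at 5.56 ± 0.19 (adjusted p = 4.53e-14), Igfbp4 at 3.96 ± 0.17, Igfbp7 at 2.96 ± 0.16 and Igf2r at 1.51 ± 0.18. Igf1r gave -0.40 ± 0.21 (adjusted p = 0.141). For Igf2, Igfbp2, Igfbp3 and Igfbp5, also higher, another class had no UMI in either library, so the fitted fold depends on the prior count and is not given.

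A mean of logs is pulled down by classes that hold almost none of a gene. Against the plain mean CPM of the other classes, MPCs had 4.60 and 4.18 times the Igf1, 4.91 and 6.93 times the Igfbp6, 3.05 and 1.83 times the Igf2 and 1.92 and 2.55 times the Igfbp4, but only 0.956 and 0.908 times the Igfbp7, 0.616 and 0.712 times the Igfbp2 and 0.596 and 1.43 times the Igfbp5. The MPC call for Igfbp7, Igfbp2 and Igfbp5 therefore says that they exceed a typical class, not that MPCs are their main source. Fibroblasts were higher for all 10 members by the same test (29.4% of all genes higher, 10.6% lower), with 14.3 and 24.0 times the plain mean of other classes for Igf2 and 9.49 and 8.27 times for Igf1. The plain ratio was only 0.304 and 0.744 for Igfbp2 and 1.06 and 0.716 for Igfbp3, so fibroblasts exceeded a typical class but not the mean level in both libraries. The Igfbp2 call was lost with limma (adjusted p = 0.089) and in finer clustering (adjusted p = 0.1), and the Igf1r call (0.79 ± 0.20) was lost with limma (adjusted p = 0.0726) and without the ribosomal filter (adjusted p = 0.0972).

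MPCs and fibroblasts were compared directly. Of the 10 members 4 were lower in MPCs and none was higher, beside 9.21% of all genes lower and 5.53% higher, and the members' median log2 fold change was -0.57 beside -0.00082 over all genes. Igfbp5 fell by 1.70 ± 0.34 on the log2 scale (SE, adjusted p = 0.00191), Igf2 by 1.61 ± 0.24 (adjusted p = 0.00021), Igfbp4 by 1.52 ± 0.26 (adjusted p = 0.000452) and Igf1r by 1.06 ± 0.26 (adjusted p = 0.00849). In each library the MPC value of these 4 lay below both fibroblast values. Igf1 (log2 fold change -0.58 ± 0.26, adjusted p = 0.164), Igfbp7 (-0.57 ± 0.24, adjusted p = 0.13), Igfbp6 (-0.40 ± 0.24), Igf2r (-0.18 ± 0.23), Igfbp2 (0.39 ± 0.49) and Igfbp3 (0.46 ± 0.32) did not pass.

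With limma on log2 CPM only Igfbp5 passed, while the log2 fold changes of the others kept their size, at -1.60 for Igf2, -1.50 for Igfbp4 and -1.03 for Igf1r. With cells gated singly by markers, Igf1r did not pass (-0.78, adjusted p = 0.0695) and Igfbp2 was lower in MPCs. In finer clustering, which drops a Cxcl5-led group from the fibroblast class, Igf1 gave 0.09 ± 0.27 in place of -0.58, and Igfbp6 (-1.03 ± 0.25, adjusted p = 0.00924) and Igfbp7 (-0.96 ± 0.29, adjusted p = 0.0285) were also lower in MPCs.

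**Figure D2:**
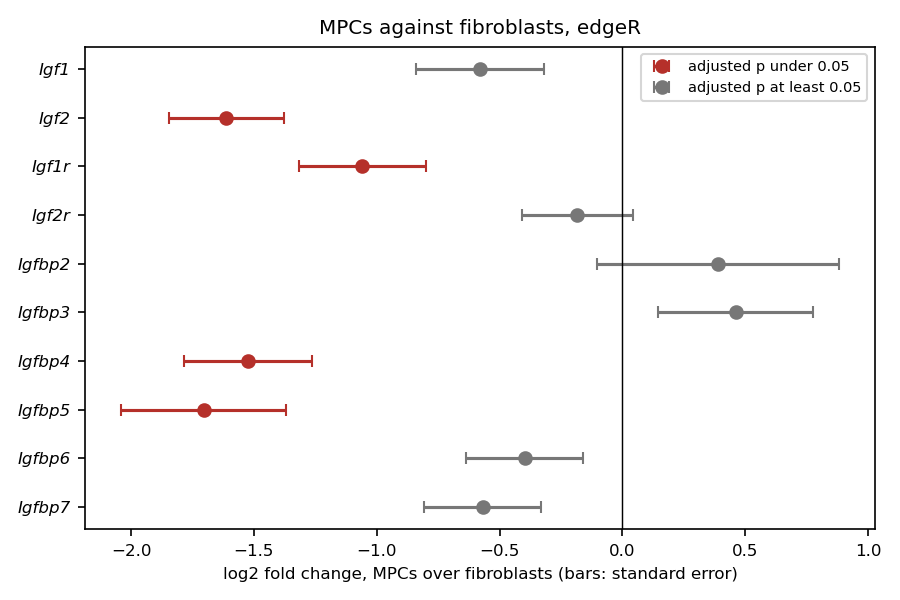
Log2 fold change of MPCs over fibroblasts for each member (points), with bars of 1 standard error from the edgeR fit, in red where the adjusted p was under 0.05. Igfbp5, Igf2, Igfbp4 and Igf1r lie below 0 by 1.06 to 1.70 and passed the test, while the other 6 members did not.

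The finer clusters show how members varied within a class, as a description without a test. MPCs split into a Tnn, Tnc and Postn-led cluster (109 and 108 cells) and a Kera, Fmod and Tnmd-led cluster (57 and 35 cells). Igf1 was alike in them, at 1215 and 1042 CPM in the first and 1217 and 1060 CPM in the second. Igf2 leaned to the Tnn-led cluster, with 81.2 and 57.6 CPM against 57.8 and 3.04 CPM in the Kera-led cluster. Igfbp6 leaned the other way, with 267 and 484 CPM in the Tnn-led cluster and 607 and 1139 CPM in the Kera-led cluster, as did Igfbp3, with 30.9 and 30.6 CPM against 94.5 and 158 CPM in the Kera-led cluster.

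Fibroblasts split more sharply. A Gdf10, Pi16 and Prg4-led cluster (73 and 68 cells) held Igfbp5 at 2252 and 2035 CPM, Igfbp6 at 1016 and 991 CPM and Igf1 at 1161 and 944 CPM, the last close to the MPC level. A Cxcl5, Sfrp2 and Gzme-led cluster (39 and 22 cells), which got no class name at that resolution, held Igf1 at 2661 and 2939 CPM and Igfbp4 at 5333 and 4334 CPM, but Igfbp6 at only 36.4 and 54.9 CPM and Igfbp5 at 516 and 454 CPM. Igf1 and Igfbp4 were themselves among the leading genes of the Cxcl5-led cluster, so this is a description of that cluster.

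Other classes split as well. Macrophage Igf1 was at 237 and 328 CPM in the larger, Mrc1-led cluster and at 35.2 and 81.3 CPM in the Aif1 and Lst1-led cluster. Within smooth muscle cells and pericytes, Igfbp5 was at 514 and 340 CPM in the Rgs5-led cluster and 2802 and 1879 CPM in the Id4 and Myh11-led cluster, and Igfbp2 had no UMI in the Rgs5-led cluster. Schwann cells of the myelin gene cluster held Igfbp7 at 11.9 and 14.8 CPM, against 1916 and 1572 CPM in the other Schwann cluster. A Trdc and Il17a-led T cell cluster held Igf1r at 162 and 231 CPM, against 15.1 and 71.8 CPM in the Cd28 and Trac-led T cell cluster.

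**Figure D3:**
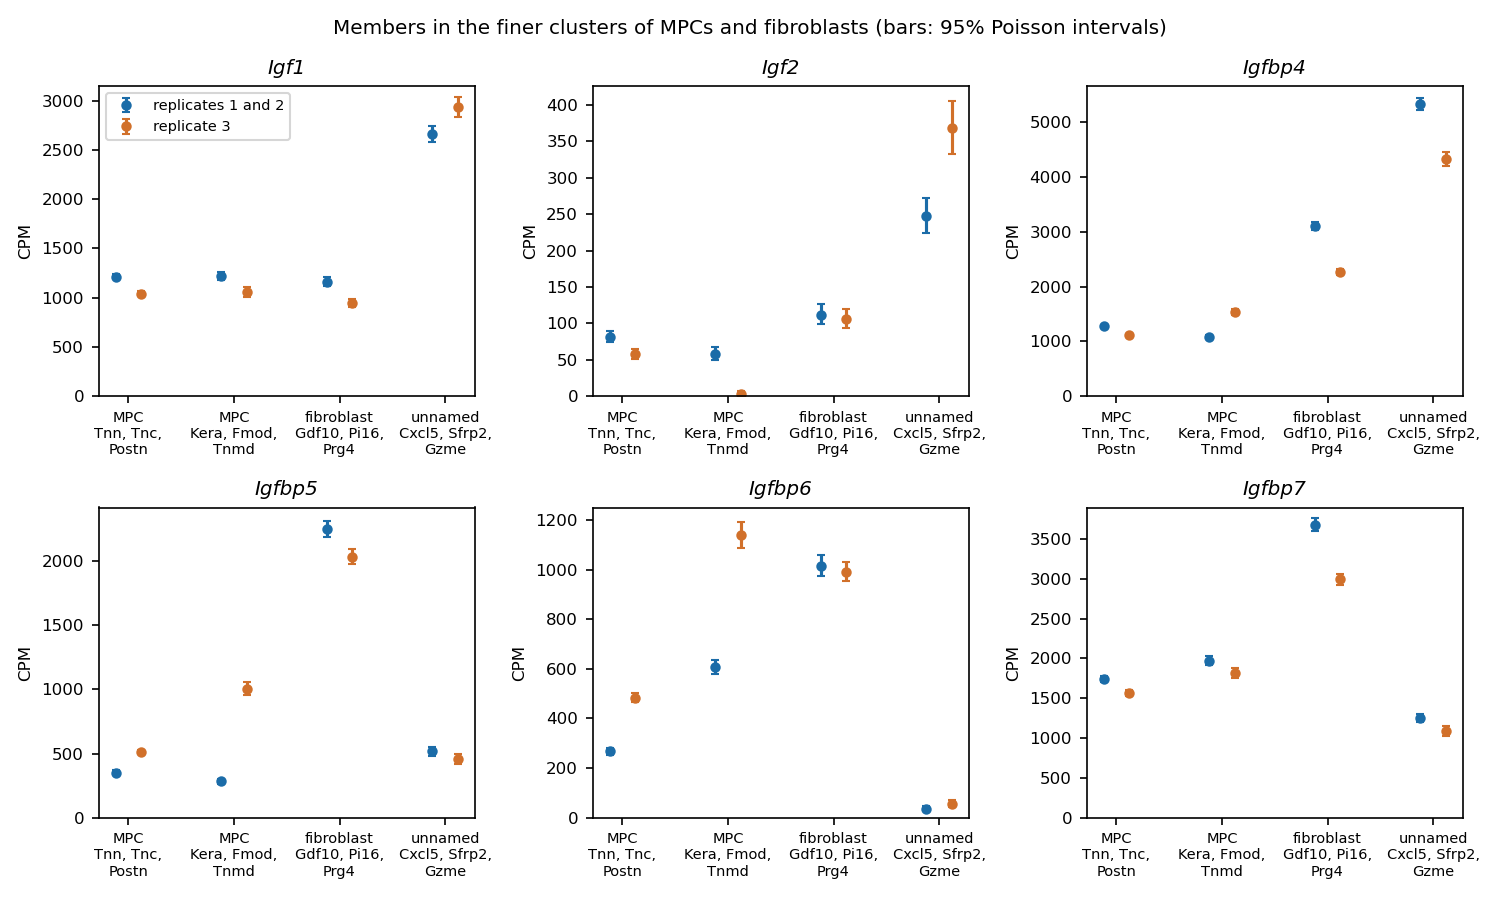
Level of 6 members (CPM) in the finer clusters of MPCs and fibroblasts, each named by its leading genes, with a point for each library and bars of the exact Poisson 95% interval. The Cxcl5-led cluster is highest for Igf1 (2661 and 2939 CPM) and Igfbp4 and lowest of the 4 clusters for Igfbp6.

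Macrophages were set against the other classes in the same way. Igf1 rose by 3.10 ± 0.23 (log2 fold change ± SE, adjusted p = 3.6e-09) and Igfbp4 by 0.62 ± 0.22 (adjusted p = 0.036), and Igfbp7 fell by 4.76 ± 0.30 (adjusted p = 2.67e-10), beside 23.3% of all genes higher and 13.5% lower. Against the plain mean of other classes macrophages held 0.559 and 0.914 times the Igf1, so the rise is over the classes that hold little. The Igfbp4 call did not pass under 5 of the alternatives and turned direction when cells were gated by markers singly (log2 fold change -0.49). That gate also put chondrocytes (83 and 29 cells) among the classes fitted and left out dendritic cells (21 and 10 cells). Here and in the vascular classes below, the effects of these changes and of the gate itself cannot be told apart. Igf2, Igf1r (-0.37 ± 0.26), Igf2r (-0.61 ± 0.28) and Igfbp6 (0.28 ± 0.44) did not pass. Igf2r was called lower with cells gated singly (-1.27, adjusted p = 3.77e-05) and without the ribosomal filter (adjusted p = 0.0359). It was also called lower at resolution 0.4 (adjusted p = 0.0169) and without the filter on low counts (adjusted p = 0.039). With 1 library alone its values were -0.96 and 0.14, so the libraries differ in direction. Igfbp2, Igfbp3 and Igfbp5 had at most 9 UMIs per library in macrophages, and edgeR returned no standard error for them. DESeq2 called all 3 lower (adjusted p = 0.0412, 0.000299 and 4.18e-09), as did limma (adjusted p = 0.00612, 1.51e-05 and 3.01e-06). In a comparison added after the values were seen, fibroblasts exceeded macrophages for all 10 members (28.6% of all genes higher, 22.5% lower), Igf1 by 2.76 ± 0.28 (log2 fold change ± SE, adjusted p = 1.92e-07).

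Of the vascular classes, endothelial cells were higher for Igfbp7 (4.42 ± 0.15, log2 fold change ± SE), Igfbp3 (4.08 ± 0.39) and Igfbp4 (0.95 ± 0.22, adjusted p = 0.00242) and lower for none, beside 19.7% of all genes higher and 9.02% lower. The fold of Igfbp3 rests on a class at 0 and is no bound, and its plain ratio was 2.87 and 6.05 times the mean of other classes. The plain ratio of Igfbp4 was only 0.335 and 0.348, and its call was lost with limma (adjusted p = 0.127) and with cells gated singly (0.26, adjusted p = 0.484), with values of 0.46 without the pooled library and 1.44 without replicate 3. Igf1 (0.57 ± 0.31), Igf2, Igf1r (0.55 ± 0.24), Igf2r (0.60 ± 0.24), Igfbp5 and Igfbp6 did not pass in endothelial cells. Igfbp2, with no UMI there, got no standard error from edgeR and was lower by limma (adjusted p = 0.00842).

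Smooth muscle cells and pericytes were higher for 7 members, Igf2, Igf2r, Igfbp2, Igfbp3, Igfbp4, Igfbp5 and Igfbp7 (23.2% of all genes), and lower for 1, Igfbp6 (8.47% of all genes), which had 2 and 0 UMIs there. Igf1 (-0.57 ± 0.36) and Igf1r (0.53 ± 0.23, log2 fold change ± SE) did not pass in them. With cells gated singly Igf1 was called lower (-1.50, adjusted p = 0.000582). Without the filter on low counts Igf1r was called higher (adjusted p = 0.0151). Of the 7, 3 lay below the plain mean of other classes, with ratios of 0.269 and 0.438 for Igf2, 0.784 and 0.528 for Igfbp3 and 0.727 and 0.816 for Igfbp4. The Igf2 call was lost with limma (adjusted p = 0.0538) and with cells gated singly (adjusted p = 0.158), and the Igfbp3 call with limma (adjusted p = 0.137). In the gate by single cells the Igfbp6 fit had a standard error of 1042, which is unusable, so its lost call there is no result about Igfbp6.

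In 2 comparisons of smooth muscle cells and pericytes added after the values were seen, they exceeded fibroblasts for Igfbp2 (3.59 ± 0.45, adjusted p = 3.29e-05) and Igfbp7 (0.95 ± 0.24, log2 fold change ± SE, adjusted p = 0.00541), and were lower for Igf1, Igf2, Igfbp4 and Igfbp6 (12.3% of all genes higher, 15.5% lower). Igfbp5 did not pass there (-0.34 ± 0.33, adjusted p = 0.5). Against endothelial cells they were higher for Igfbp5 (3.81 ± 0.39, adjusted p = 7.41e-07), Igf2r, Igfbp2 and Igfbp4 and lower for Igfbp3 (-2.06 ± 0.38) and Igf1 (-1.01 ± 0.35), beside 15.6% of all genes higher and 12.8% lower. Igfbp7 did not pass between the vascular classes (0.23 ± 0.24, adjusted p = 0.543).

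Of the 32 other pathway genes 25 passed the filter on low counts, and Insrr, Ins2, Igfbp1, Igfbpl1, Igfals, Stc2 and Igf2bp1 did not. In MPCs 11 were higher and 5 lower than in the other classes, beside 31.1% of all genes higher and 14.3% lower. Those higher were H19, Akt1 (0.62), Akt2 (0.52), Socs2 (2.02), the proteases Pappa, Htra1 and Htra3, the adaptors Irs1, Grb10 and Grb14, and the growth hormone receptor Ghr (2.51 ± 0.21, log2 fold change, with SE for Ghr). Pik3r1, Stat5a, Stat5b, Crtc2 and Foxo1 were lower, by 0.74 to 1.21 on the log2 scale. H19, the imprinted neighbour of Igf2, was at 677 and 628 CPM in MPCs and at 990 and 711 CPM in fibroblasts, and at 21.5 CPM or less in macrophages, endothelial cells, and smooth muscle cells and pericytes.

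Against fibroblasts, MPCs were higher for 3 pathway genes and lower for 4, beside 5.53% and 9.21% of all genes. Grb14, an adaptor that restrains receptor signalling, was at 25.9 and 16.6 CPM in MPCs and 5.66 and 4.96 CPM in fibroblasts (1.97 ± 0.34, log2 fold change ± SE, adjusted p = 0.000689). Htra1, a secreted serine protease, was at 412 and 465 CPM in MPCs and 175 and 193 CPM in fibroblasts (1.24 ± 0.22, adjusted p = 0.000527), and Socs2, a suppressor of growth hormone signalling, at 85.5 and 76.0 CPM in MPCs and 44.5 and 34.7 CPM in fibroblasts. Irs2 (-1.54 ± 0.28), Ghr (-0.67 ± 0.20), Stat5b (-0.83 ± 0.25) and the protease gene Pappa2 (-5.52 ± 1.18) were lower in MPCs. Pappa2 was at 30.3 CPM in fibroblasts of the pooled library but at 2.48 CPM in the other, so its fold differs between libraries.

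In endothelial cells 8 of the 25 pathway genes were higher and 3 lower, beside 19.7% and 9.02% of all genes. Higher were Insr (log2 fold change 2.34), Grb10 (2.66), Socs2 (2.49), Foxo1 (1.69), Stat5b (0.96), Shc1 (0.78), Crtc2 (0.74) and Stc1, and lower were Irs2 (-5.00), Akt2 (-2.01) and Foxo3 (-0.82). In smooth muscle cells and pericytes 13 were higher and 0 lower, beside 23.2% and 8.47% of all genes. These were Htra1 (4.44), Grb10 (2.26), Irs2 (1.78), Pik3r1 (1.15), Ghr (0.92), Shc1 (0.61), Foxo3 (0.54), Pik3ca (0.45), Irs1, Grb14, Pappa2, Stc1 and Igf2bp2. In macrophages 5 were higher and 5 lower, beside 23.3% and 13.5% of all genes, so the share of higher genes was near that of all genes. Irs2 (1.54), Crtc2 (0.99), Akt2 (0.76), Stat5b (0.63) and Foxo3 (0.52) were higher and Htra1 (-4.45), Socs2 (-3.57), Ghr (-3.40), Grb10 (-3.10) and Foxo1 (-1.26) lower. In fibroblasts 15 were higher and 1, Pik3r1 (-0.47), was lower, beside 29.4% and 10.6% of all genes. Those higher were H19 (6.93), Grb10 (4.61), Ghr (3.26), Htra1 (3.23), Irs2 (1.41), Socs2 (0.88), Shc1 (0.82), Akt2 (0.68), Foxo3 (0.57), Irs1, Grb14, Htra3, Pappa, Pappa2 and Igf2bp2. Genes named without a value rest on a class with no UMI.

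The insulin receptor gene Insr was at 87.6 and 82.2 CPM in endothelial cells, against 12.6 CPM or less in MPCs and 17.2 and 14.9 CPM in fibroblasts.

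By the correlation of log2(CPM + 1) over the 18 class sums, the genes most like Igf1 were Pdpn (r = 0.95), Vcam1 and Naglu. Those most like Igfbp5 were Rbms3 (r = 0.98), Mxra7 and Kirrel, those most like Igfbp7 were Fbxl7 (r = 0.98), Rhoj and Cald1, and Igfbp6 ran closest to H19 (r = 0.96), Sfrp2 and Mfap4. Igf2 was most like Scara3 (r = 0.96), Osr1 and Medag, and Igf1r had no gene above r = 0.84 (Camk2n1). The 18 sums share 2 libraries and differ in depth, so these values describe likeness in pattern only.

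In the wild-type sections, spots were assigned to tissues by markers summed over a spot and its neighbours. A spot can hold several cells, and fewer cells of a type or less RNA per cell cannot be told apart. Probes differ in capture, so levels are compared between tissues for 1 gene and not between genes. Over the sections Igfbp7 had 5673 and 4832 UMIs, Igfbp5 4290 and 2653, Igf1 783 and 551, Igfbp4 435 and 359 and Igfbp3 355 and 459. Igf1r, Igf2, Igf2r, Igfbp2 and Igfbp6 had at most 165 UMIs in a section, and Igf2, Igf2r and Igfbp6 did not pass the filter on low counts, so 7 of the 10 members were tested among 3119 genes.

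Wound mesenchyme was gated on Postn, Tnc, Cthrc1 and 5 further genes of the injury-activated mesenchyme (39 and 45 spots), and tendon on Tnmd, Fmod, Kera, Thbs4, Mkx and Scx (79 and 67 spots). Wound markers took only 0.292% and 0.325% of UMIs in wound spots, and 0.154% and 0.173% in tendon spots. Tendon markers took 0.219% and 0.252% in tendon spots. Median depths were 1473 and 1669 UMIs in wound spots, 1587 and 1105 in tendon and 365 and 370 in skeletal muscle. The part of depth in these levels was not tested. Igfbp7 was at 3098 and 2929 CPM in wound mesenchyme, 3975 and 3502 CPM in tendon, 3077 and 3668 CPM in adipose tissue and 2859 and 2541 CPM in cartilage, and lowest in inflammatory myeloid spots at 666 and 563 CPM. The adipose label is weak, since its 30 and 22 spots held only 35 and 14 UMIs of adipose markers. Igfbp5 was at 1693 and 1228 CPM in wound mesenchyme, 2650 and 2208 CPM in tendon and 1925 and 2295 CPM in skeletal muscle, and again lowest in inflammatory myeloid spots at 374 and 311 CPM.

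Igf1 was at 468 and 230 CPM in wound mesenchyme and 447 and 214 CPM in tendon, from 18 to 55 UMIs, so the tissues were close to each other within a section while A1 stood above B1 in both. In cartilage A1 stood below B1, with 268 and 405 CPM. Igfbp3 was at 180 and 397 CPM in wound mesenchyme and 358 and 273 CPM in tendon, and the sections disagreed on which was higher. Igf1r had 0 and 6 UMIs in wound mesenchyme, which allows up to 54.0 CPM in A1, and 3 and 34 UMIs in inflammatory myeloid spots (125 and 186 CPM). Igfbp2 was at 187 and 106 CPM in epidermis and 130 and 28.2 CPM in skeletal muscle, with 1 UMI in the wound mesenchyme of each section.

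**Figure D4:**
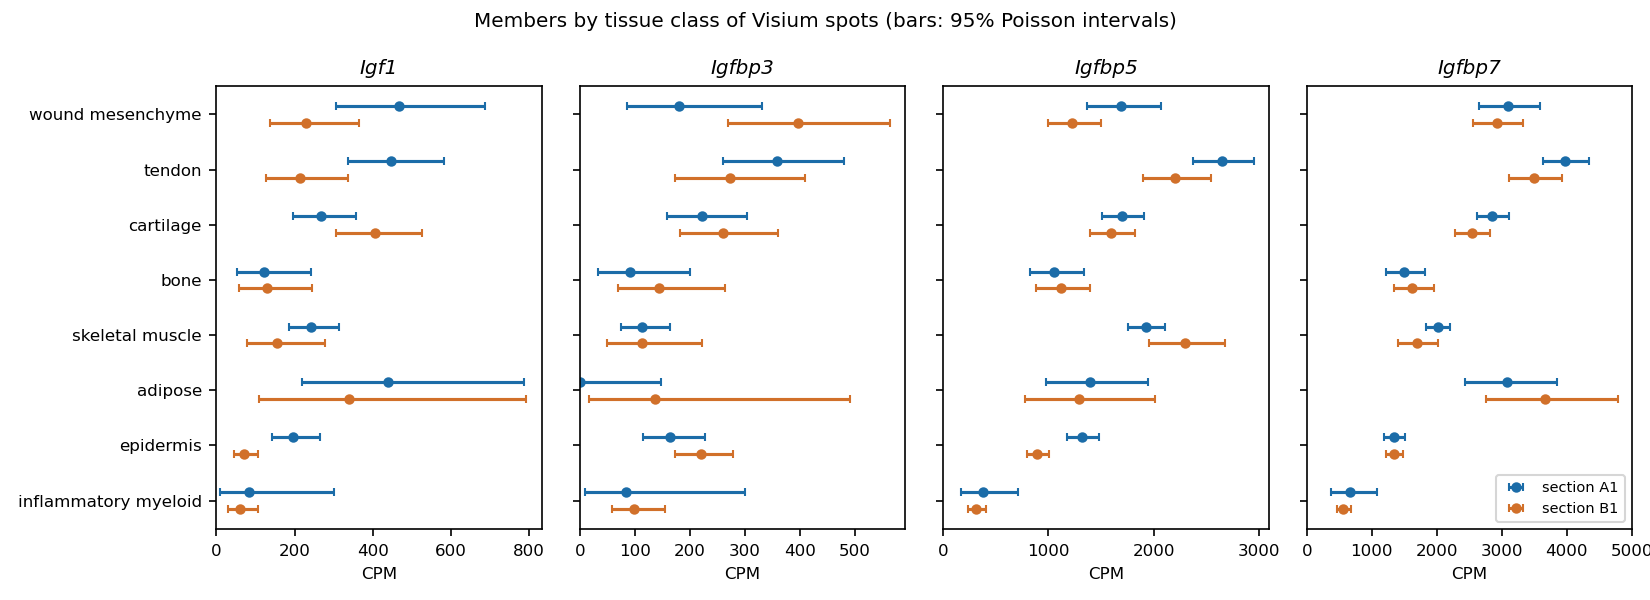
Level of 4 members (CPM) in spots assigned to each of 8 tissues, with a point for each section and bars of the exact Poisson 95% interval, which covers counting error only. Igfbp5 and Igfbp7 are highest or near the top in tendon (2650 and 2208 CPM, and 3975 and 3502 CPM) and lowest in inflammatory myeloid spots.

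Sums per tissue and section were tested as for cells. Tendon spots were higher than the other tissues for 3 of the 7 members tested and lower for none, beside 4.26% of all genes higher and 1.86% lower: Igfbp7 by 0.91 ± 0.15 (log2 fold change ± SE, adjusted p = 2.36e-06), Igfbp5 by 0.93 ± 0.16 (adjusted p = 7.18e-06) and Igfbp3 by 1.10 ± 0.30 (adjusted p = 0.00796). The Igfbp3 call was lost at 2 stricter gates and with limma, and its value was 0.46 without A1 and 1.64 without B1. Both gates also took adipose tissue out of the other tissues, and the gate at 0.00001 took out wound mesenchyme too. The effects of these changes and of the gate itself cannot be told apart. Igf1 in tendon gave 0.62 ± 0.27 (adjusted p = 0.171).

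In wound mesenchyme no member passed against the other tissues (1.41% of all genes higher and 0.834% lower). At an unadjusted p under 0.05 there were 2, Igfbp7 (0.49 ± 0.16, adjusted p = 0.0866) and Igfbp3 (0.86 ± 0.34, adjusted p = 0.163), and DESeq2 called 1, Igfbp7. With regions taken from clustering in place of marker gates, 5 members were higher, Igf1 by 1.18 ± 0.22, and Igf1r was lower by 1.41 ± 0.35. That alternative changed the wound spots to 679 and 573 and also took tendon, bone and adipose tissue out of the comparison, so the effects of these changes cannot be told apart. How many of all genes were called with those regions was not counted, so the number of members called there has no background. Wound mesenchyme against tendon gave no call (0.0962% of all genes higher and 0.16% lower), with 1 member, Igfbp5 (-0.80 ± 0.23, adjusted p = 0.17), at an unadjusted p under 0.05 and none by DESeq2. Of the 32 pathway genes 9 could be tested in spots, and none passed in these 3 comparisons.

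Spots outside every gate were grouped by their distance, in spot steps, from the nearest wound mesenchyme spot. Igf1 was at 520, 511, 600, 392 and 259 CPM in A1 at 1-2, 3-4, 5-8, 9-16 and over 16 steps, and at 384, 381, 337, 190 and 207 CPM in B1. In both sections the bands within 8 steps exceeded those beyond. Igfbp4 went the same way, with 224, 274, 278, 185 and 180 CPM in A1 and 192, 238, 212, 101 and 117 CPM in B1. Igfbp3 was highest at 1-2 steps in both sections (202 and 276 CPM). Igfbp5 in A1 stayed between 1690 and 2300 CPM, while in B1 it was at 1134 to 1360 CPM within 8 steps and 734 and 739 CPM beyond. Depth fell along the same bands, with medians of 1226.5 UMIs per spot at 1-2 steps and 275 at over 16 in A1, and 1127 and 302 in B1, and its part in these levels was not tested.

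**Figure D5:**
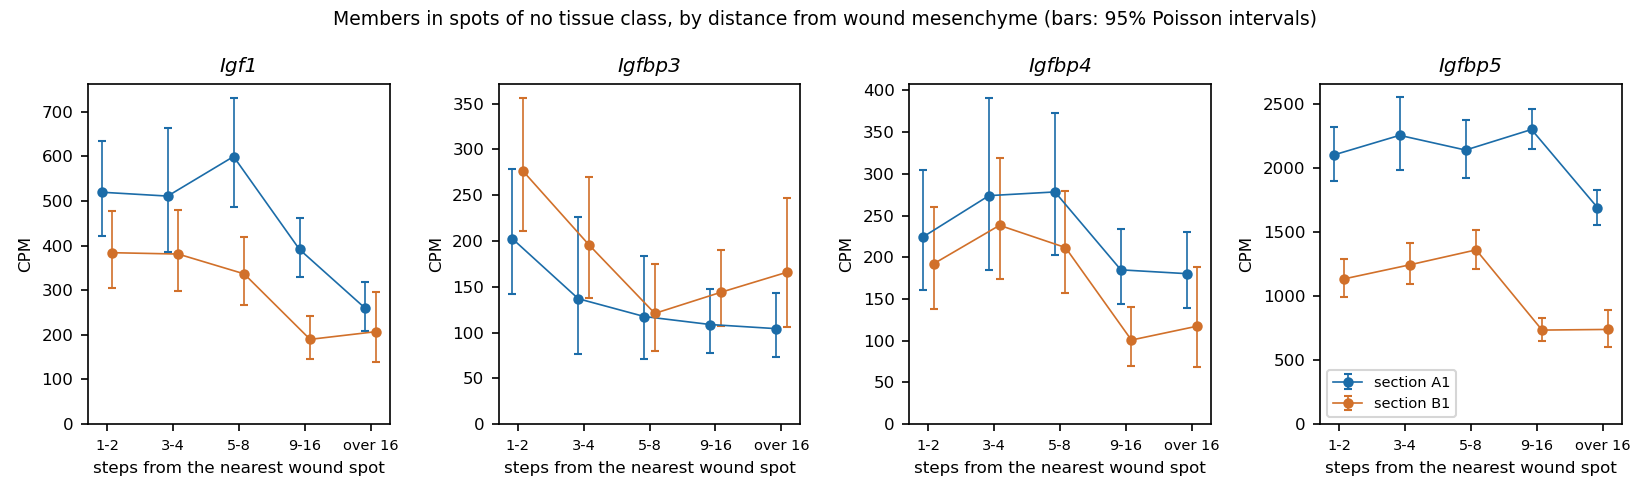
Level of 4 members (CPM) in ungated spots by distance from the nearest wound mesenchyme spot, in spot steps, with a line for each section and bars of the exact Poisson 95% interval. Igf1 is at 337 to 600 CPM within 8 steps and at 190 to 392 CPM beyond.

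The deposited spatial tables also score each gene by Moran's I, the likeness of neighbouring spots. Igfbp5 scored 0.131 (rank 49 of 19132 genes) and 0.191 (rank 57 of 19222), Igfbp7 0.109 (rank 63) and 0.191 (rank 58), and Igf1 0.0579 (rank 179) and 0.0886 (rank 195). Igf2r scored -0.0015 and -0.0074, below most genes. The members with the highest scores were also those with most UMIs, and a gene seen in few spots has little room to score.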

How the data were processed

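Single-cell data were 2 Chromium 3′ v3 libraries and spatial data were 2 Visium FFPE probe sections. Per the labels and file headers, the authors aligned reads to mm10 with Cell Ranger 5.0.1 and Space Ranger 2.0.1 and deposited raw UMI counts per gene and barcode or spot, together with a deposited score per gene (Moran's I) for the sections. Counting with or without strand is not given in the sources used here. No deposited per-sample column was left unmapped. Following the study's methods, cells had at most 20% of UMIs from mitochondrial and at least 5% from ribosomal genes. The limits on genes and UMIs, for which the methods give no number, were set here at 200 genes or more and the 99th percentile of genes and of UMIs. A doublet caller marked 4 and 2 cells, which were kept, and 1 barcode was shared by the libraries. The libraries were integrated and cells clustered in Seurat 5.3.0 (R 4.3.3; 2000 variable genes, 30 components, resolution 0.8) without the members or the pathway list. A cluster took a class name when 3 or more class markers were among its 50 leading genes, 2 more than for any other class, so class names were rebuilt here. Classes with 20 cells in each library were fitted; skeletal muscle, mast cells, chondrocytes and 4 unnamed clusters were not.

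Spots with 100 UMIs or more were kept. The gate planned for single spots gave under 20 wound and tendon spots, so marker UMIs were summed over a spot and its neighbours at the same Poisson tail of 0.001 (at least 3 UMIs of 2 markers, exactly 1 tissue), a change made after marker counts and before member values were seen. Neighbouring spots therefore share evidence for their class.

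Counts were summed per class and sample and tested with edgeR 4.0.16 (TMM, filterByExpr, quasi-likelihood test, library or section as block, adjusted p threshold 0.05). DESeq2 1.42.0, limma 3.58.1 (log2 CPM, prior count 2) and other filters, scalings, resolutions and gates were alternatives. The fit was run on simulated data with the same gene means in every class, except for a set of genes changed in the tested class. That setting lacks the differing class profiles and empty classes of the real data, so it is no check of these calls. Intervals of CPM are exact Poisson intervals at 95%, shares with 0 counts take 3 counts as their limit, and both cover counting error only. The rule was to name all 10 members in every comparison, pathway genes where they passed, and per member the 3 genes most alike in pattern. Members and lists were chosen with earlier results of these data known. The scaling moved the median of all genes by over 0.1 in 4 comparisons: without TMM it was -0.06 in place of 0.09 for MPCs, -0.04 in place of 0.12 for fibroblasts, 0.20 in place of 0.04 for endothelial cells and 0.15 in place of 0.01 for wound mesenchyme.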

Additional observations from a re-analysis of the deposited data

Results flagged for a closer look

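Igfbp2 gave a signal in cells outside the fitted classes. A cluster led by Coch, Crabp1 and Wif1, which got no class name (35 and 24 cells), held Igfbp2 at 263.6 CPM (exact Poisson 95% interval 231 to 299, 240 UMIs) in the pooled library and at 791 CPM (729 to 857, 595 UMIs) in the replicate 3 library. Coch and Crabp1 are on the list of fibroblast markers used to name classes. The highest fitted class, smooth muscle cells and pericytes, held 80.5 and 50.6 CPM. Igfbp2 was itself among the 10 leading genes of that cluster, so its level there is a description with no test.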

How the results depend on the processing

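Of 86 alternative counts of called members, 75 stayed within 1.5 times the main count. The counts that moved were, for macrophages (3 called), 5 with DESeq2 and 6 with limma; for endothelial cells (3 called), 6 without TMM, 8 without the filter on low counts and 6 without the ribosomal filter; for MPCs against fibroblasts (4 called), 1 with limma; and for wound mesenchyme (0 called), 1 with DESeq2, 1 without TMM, 2 with mixed spots given to their best tissue, 6 with regions from clustering and 1 at a gate of 0.0001. The cause was not tested, except that without the filter the extra endothelial calls were Igf2, Igf1r, Igf2r, Igfbp5 and Igfbp6 with smaller standard errors. Shares of all genes called were taken at the main setting only, so counts under the alternatives have no such background. Of single members 706 values kept their side of the threshold, 22 lost the call and 46 gained one. The 706 include values that turned direction with no call before or after, such as Igf1 in MPCs against fibroblasts in finer clustering. Another 2 turned direction with a call on 1 side, both with cells gated singly. These were Igfbp2 in MPCs against fibroblasts (log2 fold change -2.30) and Igfbp4 in macrophages (-0.49). In that gate 184 of 316 MPCs lay near the limit. The gate also added chondrocytes to the classes fitted and took dendritic cells out. The run without the ribosomal filter added neutrophils (39 and 20 cells). Where a class was set against the other classes, these changes and the gate or filter cannot be told apart. Igf1r was lower in MPCs than in the other classes without TMM (-0.55, adjusted p = 0.0424) and without the ribosomal filter (-0.72, adjusted p = 0.00475). Without the library block (no replicate block) counts were 9 for MPCs, 4 for MPCs against fibroblasts, 10 for fibroblasts, 2 for macrophages, 4 for endothelial cells, 8 for smooth muscle cells and pericytes and 3 for tendon; only Igfbp4 in macrophages and Igfbp5 in endothelial cells changed side. Libraries and sections share no replicate number across groups, so no other paired analysis was possible. With 1 library or section alone there is no test; all 40 called values kept their direction. The stricter planned gate of 0.00001 left too few wound spots, and regions from clustering held no tendon, so those comparisons were not run. In the sections, with median depths of 454 and 516 UMIs per spot, 3 members did not pass the filter on low counts.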

Other observations

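Classes too small to fit gave values for some members. Chondrocytes, named from Col2a1, Col9a3 and Matn3 (16 and 6 cells), held Igf1 at 1522 and 786 CPM and Igfbp7 at 3132 and 2839 CPM, levels of the order seen in MPCs, while Igfbp5 was at 197 and 28.2 CPM. Skeletal muscle (20 and 17 cells) held Igf2 at 84.4 and 185 CPM from 6 and 4 UMIs, at median depths of 1472 and 1061 UMIs per cell. Mast cells (7 and 14 cells) held Igf1r at 123 and 249 CPM from 3 and 22 UMIs.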
